A study of Mus musculus with 7 samples.

Results

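Leydig cells, the interstitial cells that make the hormones of the testis, were followed here through 9 genes: *Star*, *Cyp11a1*, *Cyp17a1*, *Hsd3b1*, *Hsd3b6*, *Hsd17b3*, *Srd5a1*, *Lhcgr* and *Insl3*. They were taken from a written list of steroidogenic and Leydig genes, a rule that uses no measured value although earlier results of these data were known when it was written, and are 9 of the 21928 genes with summed counts. All 9 are among the 13630 genes that passed the filter on low values, which keeps a gene with a TPM (length-normalized abundance, scaled to the same total in each library) of 1 or more in 3 or more libraries. The study asked what the germ cell protein MEIOC does as spermatogenic cells pass from mitosis to meiosis, and sequenced total RNA, depleted of ribosomal RNA, from testes enriched for preleptotene spermatocytes. There were 4 wild-type pups and 3 *Meioc*-null pups, which carry the allele *Meioc*tm1.1Dpc and are labelled *Meioc* KO. All 7 pups were of the C57BL/6N strain. Each of them also received the same synchronization treatment. WIN 18,446, which blocks the synthesis of retinoic acid, was given under the skin at 0.1 mg/g body weight every day from postnatal day 2 to 8. Retinoic acid followed at 0.0125 mg/g on day 9, and testes were taken 6.75 days later. A library holds the RNA of 1.5 testes of 1 pup, so every cell type of the testis contributes to it. No untreated pup is among these samples, so levels here are those of treated pups in both groups.

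Testosterone is made from cholesterol in a fixed series of steps. Luteinizing hormone binds its receptor LHCGR on the Leydig cell and raises cyclic AMP. STAR then moves cholesterol to the inner membrane of the mitochondrion, where CYP11A1 cuts off its side chain to give pregnenolone. The 3-beta-hydroxysteroid dehydrogenases HSD3B1 and HSD3B6, the 17-hydroxylase and lyase CYP17A1 and the 17-beta-hydroxysteroid dehydrogenase HSD17B3 complete the path to testosterone. SRD5A1 reduces testosterone and related steroids at the 5-alpha position, an activity known from immature Leydig cells. INSL3 is a peptide hormone of Leydig cells and takes no part in steroid synthesis. In the mouse, the fetal Leydig cells are replaced during postnatal life by an adult population, and *Hsd3b6* and *Hsd17b3* are known mainly from the adult population.

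The libraries held between 12537852 and 20552702 estimated counts, and 3 counts corresponded to 0.151 to 0.236 CPM. CPM are counts scaled to a common library size, here with the factors of the trimmed mean of M-values (TMM). *Meioc*, the targeted gene, was at 466 to 718 CPM in the wild-type pups and at 299 to 412 CPM in the *Meioc*-null pups, with no overlap (log2 fold change 0.76 ± 0.16 SE, edgeR adjusted p = 0.0207). That call was lost in 5 of the 7 fits that leave out 1 pup (adjusted p up to 0.0638). RNA of the targeted gene was therefore still counted in the null pups, and what part of the transcript these counts come from cannot be read from the summed table. Fold changes are given throughout as wild type over *Meioc*-null. Enzymes that belong to the adrenal gland were at or near the limit that 3 counts set. *Cyp11b2* was at 0 in all 7 libraries, *Cyp21a1* reached 0.209 CPM, the ACTH receptor *Mc2r* reached 0.348 CPM and *Cyp11b1* reached 0.578 CPM. Markers of mature Leydig cells were unequal. *Vcam1* was at 116 to 229 CPM and *Gramd1b* at 61.0 to 90.7 CPM. *Hsd11b1*, which acts on glucocorticoids in mature Leydig cells, stood at 0.630 to 1.68 CPM, and the estrogen sulfotransferase *Sult1e1* at 0 to 0.279 CPM.

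*Hsd3b1* and *Hsd3b6* lie near each other on chromosome 3 and share much of their sequence, which bears on how reads were divided between them. Their coding sequences are 1122 bases each and 90.0% identical, with 112 differing bases (GENCODE vM21 on GRCm38). The stretch of 60 coding bases that differs most, bases 94 to 153 counted from the start codon, is shown for both genes, with the 15 differing bases in capitals.
*Hsd3b1*, coding bases 94 to 153: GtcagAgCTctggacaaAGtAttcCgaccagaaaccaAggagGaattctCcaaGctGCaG
*Hsd3b6*, coding bases 94 to 153: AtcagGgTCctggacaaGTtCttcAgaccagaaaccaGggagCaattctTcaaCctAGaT
Bases 250 to 309 differ at 0 positions, and a read from this stretch could have come from either gene.
*Hsd3b1* and *Hsd3b6*, coding bases 250 to 309: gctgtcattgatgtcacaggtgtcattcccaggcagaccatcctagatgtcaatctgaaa
Of the 31-base words in the transcripts of *Hsd3b1*, 8.70% also occur in another gene, and of those of *Hsd3b6*, 29.2%. The other holders are mainly members of the same family, led by *Hsd3b6* for *Hsd3b1* and by *Hsd3b2* for *Hsd3b6*. The estimated counts of these genes therefore depend partly on how kallisto divided shared reads. The transcript of *Insl3* lies within the span of *Jak3* on the same strand and shares 63.1% of its words with it. *Jak3* was at 2.88 to 4.89 CPM, against 47.7 to 77.2 CPM for *Insl3*. No word of *Cyp11a1*, *Cyp17a1*, *Hsd17b3* or *Srd5a1* occurs in another gene, and 0.0249% of the words of *Star* do. For *Lhcgr* the deposited transcript and the vM21 model differ in length, so no share was computed. *Srd5a1* overlaps *Nsun2* on the opposite strand, and the authors' counting used strand.

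Among the genes tested, 1 of the 9 passed the threshold of an adjusted p under 0.05. *Hsd17b3*, the enzyme of the last step to testosterone, was higher in wild type. This is 11.1% of the genes, and the same share of all tested genes, 11.1% (1513 of 13630), passed the test. In CPM, the wild-type and *Meioc*-null pups did not overlap for 2 of the 9 genes (22.2%), *Hsd17b3* and *Hsd3b1*, against 26.2% of all tested genes. In TPM, the groups overlapped for *Hsd17b3* but not for *Hsd3b1* or *Lhcgr*, and the share of all tested genes was not counted on that scale. In the direction of *Hsd17b3*, 7.77% of the tested genes were called and 15.4% did not overlap, and in the other direction 3.33% were called and 10.8% did not overlap. The median log2 fold change of the 9 genes was 0.20, and that of all tested genes -0.0065. Of the 8 genes not called, 5 had positive and 3 negative log2 fold changes. At an unadjusted p under 0.05 there were 2 genes, *Hsd17b3* and *Hsd3b1*. DESeq2 called both of them, and 17.1% of all tested genes, 6.42% lower in wild type. Values on the TPM scale stood on another centre: with limma on log2(TPM + 1), the median of all genes was -0.23, 3 of the 9 genes were called, and 18.5% of all tested genes, 15.3% lower in wild type.

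**Figure D1:**
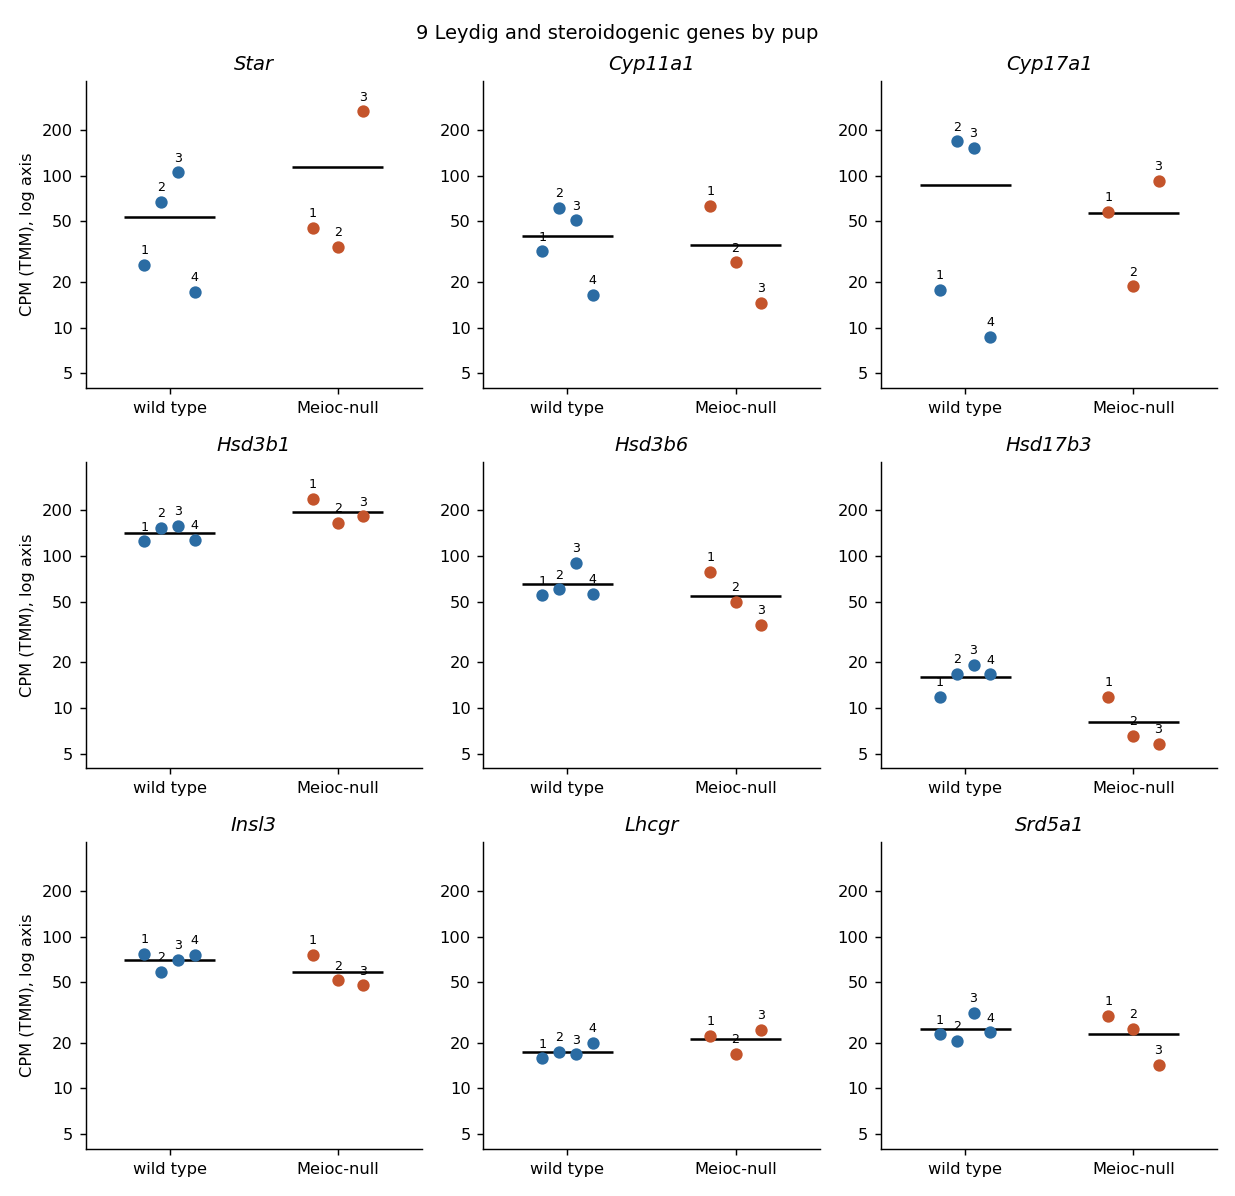
CPM (TMM-scaled, log axis) of the 9 genes in each pup, with the replicate number beside each point, wild type in blue, *Meioc*-null in red and the group mean as a line. *Star*, *Cyp11a1* and *Cyp17a1* spread widely within both groups, whereas *Hsd3b1*, *Insl3* and *Lhcgr* lie close together; *Hsd17b3* is between 11.9 and 19.1 CPM in wild type and between 5.80 and 11.87 CPM in *Meioc*-null.

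Per length of transcript, *Insl3* and *Hsd3b1* had the highest levels of the 9 genes. The mean over the 7 pups was 207 TPM for *Insl3*, 179 for *Hsd3b1*, 66.5 for *Hsd3b6*, 60.6 for *Cyp17a1* and 34.3 for *Star*. It was 24.4 TPM for *Hsd17b3*, 23.0 for *Cyp11a1*, 13.9 for *Lhcgr* and 12.3 for *Srd5a1*. Among neighbours in this order, *Hsd3b1* was above *Hsd3b6* in 7 of 7 pups. All other neighbours changed places in at least 1 pup: *Insl3* was above *Hsd3b1* in 4 of 7, and *Star* above *Hsd17b3* in 3 of 7. The order of the middle of the list therefore does not hold beyond the spread between pups.

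The 9 genes together took up 0.0351% to 0.0698% of a library's counts. The share was 0.0388%, 0.0603%, 0.0667% and 0.0351% in wild-type replicates 1 to 4 and 0.0648%, 0.0407% and 0.0698% in *Meioc*-null replicates 1 to 3. Low and high shares occurred in both groups, which overlapped. The means were 0.0503% ± 0.0156 (SD, n = 4) in wild type and 0.0584% ± 0.0156 (SD, n = 3) in *Meioc*-null pups. In bulk tissue, fewer cells of a type and less RNA per cell cannot be told apart.

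*Star* varied 15.4-fold between pups. The gene, at chr8:25806555-25815982 on the plus strand, encodes the protein that delivers cholesterol to the mitochondrion. In wild-type replicates 1 to 4 it was at 25.7, 67.0, 105 and 17.3 CPM. In *Meioc*-null replicates 1 to 3 it was at 45.0, 33.8 and 265 CPM. *Meioc*-null replicate 3 stood above all other pups, wild-type replicates 2 and 3 came next, and the remaining 4 pups of both genotypes lay between 17.3 and 45.0 CPM. The groups overlapped, with a log2 fold change of -1.10 ± 0.75 (SE, edgeR adjusted p = 0.354). Without *Meioc*-null replicate 3 it was 0.44 (adjusted p = 0.690), so the sign of the mean difference rested on that pup.

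*Cyp17a1* had the widest range of the 9 genes, 19.3-fold. CYP17A1 hydroxylates and then cleaves the C21 steroids, which commits them to androgens, and its gene is at chr19:46667165-46673172 on the minus strand. It was at 17.7, 168, 153 and 8.70 CPM in wild-type replicates 1 to 4 and at 58.1, 18.6 and 92.5 CPM in *Meioc*-null replicates 1 to 3. Wild-type replicates 2 and 3 were the highest and wild-type replicates 4 and 1 the lowest of all pups, so that the whole range lay within the wild-type group. The log2 fold change was 0.61 ± 0.90 (SE, adjusted p = 0.674). With limma on log2(TPM + 1), where the median of all genes was -0.23, the log2 fold change was -0.27. The mean TPM itself was higher in wild type, at 67.3 against 51.8 in *Meioc*-null pups.

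*Cyp11a1* varied 4.31-fold, in another order of pups. The gene, at chr9:58006411-58027023 on the plus strand, encodes the side-chain cleavage enzyme, which sets the capacity for steroid synthesis. Wild-type replicates 1 to 4 had 31.7, 61.6, 50.8 and 16.3 CPM, and *Meioc*-null replicates 1 to 3 had 62.9, 26.9 and 14.6 CPM. *Meioc*-null replicate 3, the highest pup for *Star*, was the lowest for *Cyp11a1*. The ratio of *Star* to *Cyp11a1* in CPM was 18.2 in that pup and between 0.716 and 2.07 in the other 6. The groups overlapped (log2 fold change 0.20 ± 0.51 SE, adjusted p = 0.821). The sign turned without *Meioc*-null replicate 3 (-0.17) and without wild-type replicate 2 (-0.089).

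Spreads of this size were uncommon in these libraries. The median tested gene varied 1.46-fold between its lowest and highest pup. Of the 10243 tested genes that averaged 10 CPM or more, 20 varied at least as much as *Cyp17a1*, 21 at least as much as *Star* and 107 at least as much as *Cyp11a1*, each count including the gene itself. The other 6 of the 9 genes varied less, from 1.55-fold for *Lhcgr* to 3.30-fold for *Hsd17b3*. Within the 4 wild-type pups alone, *Cyp17a1* varied 19.3-fold, *Star* 6.09-fold and *Cyp11a1* 3.78-fold, and 13, 19 and 29 genes, respectively, varied at least as much there. Within the 3 *Meioc*-null pups the values were 4.96-fold, 7.85-fold and 4.31-fold.

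**Figure D2:**
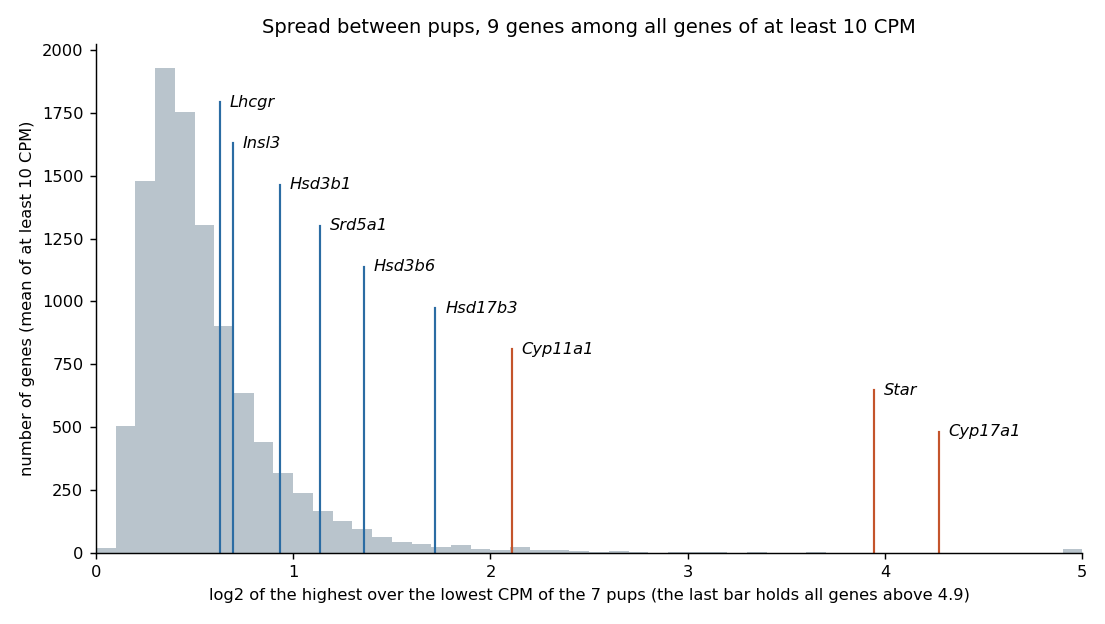
Number of tested genes that averaged 10 CPM or more (grey bars, 10243 genes) by the log2 of the highest over the lowest CPM among the 7 pups, with lines at the values of the 9 genes. *Star* and *Cyp17a1* lie far in the right tail at 15.4-fold and 19.3-fold, *Cyp11a1* (4.31-fold) in its beginning, and *Lhcgr* (1.55-fold) and *Insl3* (1.62-fold) in the bulk.

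The same 3 pups were highest for *Star* and for *Cyp17a1*: *Meioc*-null replicate 3 and wild-type replicates 2 and 3. They were also the 3 highest for *Fdx1*, which encodes ferredoxin 1, the protein that hands electrons to CYP11A1. *Fdx1* was at 42.6, 45.4 and 66.8 CPM in wild-type replicates 2 and 3 and *Meioc*-null replicate 3, and at 20.2 to 23.6 CPM in the other 4 pups. *Alas1*, the rate-limiting enzyme of heme synthesis, was at 211 CPM in *Meioc*-null replicate 3, at 175 CPM in wild-type replicate 3 and at 55.1 to 80.6 CPM in the other 5 pups. No difference between genotypes was called for *Fdx1* (log2 fold change -0.20 ± 0.41 SE, adjusted p = 0.776) or *Alas1* (-0.37 ± 0.46 SE, adjusted p = 0.614). *Fdx1* belongs to the written list of electron donors; it is set apart here after its values were seen.

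The genes whose profile over the 7 pups was nearest to that of each of the 3 variable genes were also looked up. Nearness was the root mean square difference of the log2 CPM, each gene centred on its own mean, among tested genes that averaged 5 CPM or more. This search was added after the values were seen and has no test, and all values come from the same 7 libraries. Nearest to *Star* were *Nr4a1* (0.564), *Alas1* (0.607), *Fdx1* (0.693), *Slc7a11* (0.765) and *Fosl2* (0.832). Nearest to *Cyp17a1* were *Slc7a11* (0.863), *Csrp2* (1.053), *Fdx1* (1.14), *Alas1* (1.15) and *Scd1* (1.15). *Slc7a11*, the cystine transporter, was at 15.7, 16.2 and 12.0 CPM in wild-type replicates 2 and 3 and *Meioc*-null replicate 3, and at 3.93 to 6.66 CPM in the other pups. Nearest to *Cyp11a1* were *Hao2* (0.366), *Tmem200a* (0.460), *Akr1b7* (0.460), *Ren1* (0.468) and *Adh1* (0.473). AKR1B7 is known from steroid-making tissue, where it reduces the aldehyde that side-chain cleavage releases, and *Ren1* encodes renin. For *Star* and *Cyp17a1* the nearest genes were farther away than for *Cyp11a1*. This measure grows with a gene's own spread, which was wider for *Star* and *Cyp17a1*, so these distances cannot be compared between the 3 genes.

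*Meioc*-null replicate 3 stood apart for genes that respond quickly to stimulation. *Nr4a1*, an orphan nuclear receptor that luteinizing hormone and cyclic AMP induce in Leydig cells, was at 63.1 CPM there and at 4.78 to 11.2 CPM in the other 6 pups. *Nr4a2*, which did not pass the filter and was not tested, was at 15.02 CPM against 0.788 to 1.66. *Fosl2* was at 58.1 CPM against 16.8 to 23.8, and *Junb* at 40.4 against 10.1 to 14.5 CPM. Others were level: *Fos* was at 2.24 to 4.85 CPM over all pups and *Ier2* at 8.65 to 10.1 CPM. In a list of 21 immediate-early genes, put together after these values were seen, 8 of the 17 tested were highest in this pup. Of all tested genes, 14.0% were. The high values of *Nr4a1* and *Fosl2* in this pup were known when the list was made, so the 2 shares make no test. Between the genotypes, *Jun*, *Jund* and *Btg2* were called (3 of the 17), all lower in wild type, against 3.33% of all tested genes in that direction. In the list, 8 genes stood at an unadjusted p under 0.05, and the median log2 fold change was -0.51, the value of *Jun*. The summed CPM of that list was 235 to 271 in the wild-type pups, 279 and 345 in *Meioc*-null replicates 1 and 2 and 480 in *Meioc*-null replicate 3, so all 3 *Meioc*-null pups were above the wild-type pups. Because the list was put together after values were seen, its calls, median and sum make no test of the genotypes either. The part of such a response in the level of *Star* was not tested.

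**Figure D3:**
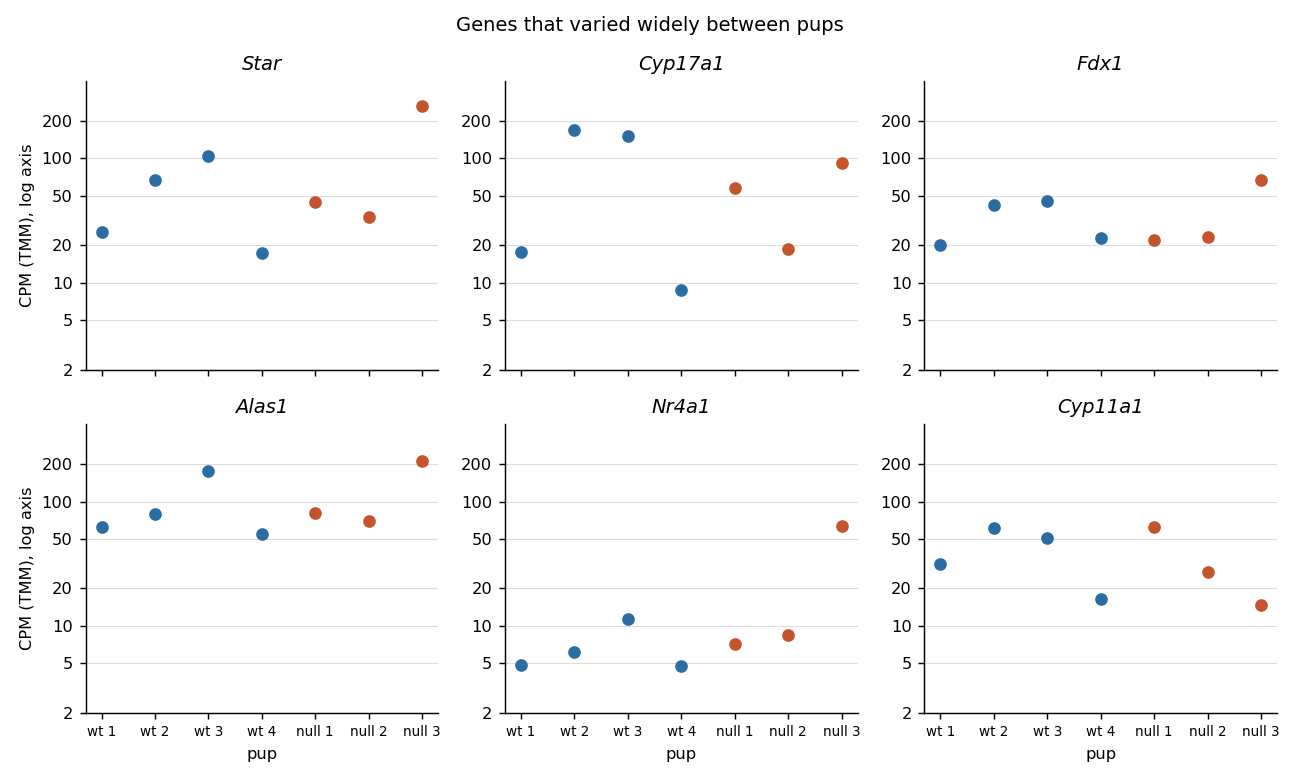
CPM (TMM-scaled, log axis) of *Star*, *Cyp17a1*, *Fdx1*, *Alas1*, *Nr4a1* and *Cyp11a1* in the 4 wild-type pups (blue, wt) and the 3 *Meioc*-null pups (red, null). *Star*, *Cyp17a1* and *Fdx1* are highest in wild-type replicates 2 and 3 and *Meioc*-null replicate 3; *Nr4a1* stands out in the last of these at 63.1 CPM, where *Cyp11a1* has its lowest value, 14.6 CPM.

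*Hsd17b3* was the gene called between genotypes. Its enzyme turns androstenedione into testosterone, and the gene lies at chr13:64058266-64089230 on the minus strand. It was at 11.9, 16.8, 19.1 and 16.7 CPM in wild-type replicates 1 to 4 and at 11.87, 6.57 and 5.80 CPM in *Meioc*-null replicates 1 to 3. The lowest wild-type pup and the highest *Meioc*-null pup were almost level, and the groups did not overlap in CPM. In TPM they overlapped, with 24.3 in wild-type replicate 1 and 25.1 in *Meioc*-null replicate 1. These values rest on 151 to 331 counts per library in wild type and 91 to 223 in *Meioc*-null pups. The mean was 16.1 ± 3.03 CPM in wild type (SD, n = 4) and 8.08 ± 3.30 CPM (SD, n = 3) in *Meioc*-null pups, a log2 fold change of 0.99 ± 0.26 (SE, edgeR adjusted p = 0.0375). The call held without wild-type replicate 1 (adjusted p = 0.0200) and without *Meioc*-null replicate 1 (0.0109). It was lost without wild-type replicate 2 (adjusted p = 0.0911), 3 (0.0993) or 4 (0.0788) and without *Meioc*-null replicate 2 (0.115) or 3 (0.120), while the log2 fold change stayed between 0.79 and 1.39.

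The counts of *Hsd17b3* came from 3 transcript models. In *Meioc*-null replicate 2, kallisto gave nearly all reads to *Hsd17b3*-204, at 15.02 TPM, whereas *Hsd17b3*-201 was at 9.61 to 10.01 TPM in the other *Meioc*-null pups and at 5.98 to 16.3 TPM in wild type. *Hsd17b3*-204 was at 14.9 TPM in *Meioc*-null replicate 1, at 2.53 TPM in *Meioc*-null replicate 3 and at 9.55 to 23.3 TPM in wild type. The models overlap, so this split within the gene is an estimate. Of 10 markers of germ cells, 5 were called, each higher in wild type, against 7.77% of all tested genes in that direction. Log2 fold changes of the 10 ran from -0.24 to 1.27, so not all went the same way. Their summed level was 2759 to 3049 CPM in wild type and 1988 to 2120 CPM in *Meioc*-null pups, with none at 0. The part of these cells in the level of *Hsd17b3* was not tested.

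*Hsd3b1* lay on the other side, higher in the *Meioc*-null pups without passing the test. HSD3B1 oxidizes and isomerizes pregnenolone and the steroids made from it, and its gene is at chr3:98852194-98859794 on the minus strand. It was at 125, 154, 158 and 128 CPM in wild-type replicates 1 to 4 and at 239, 165 and 183 CPM in *Meioc*-null replicates 1 to 3. All 3 *Meioc*-null values were above all 4 wild-type values. The means were 141 ± 17.1 CPM (SD, n = 4) and 196 ± 38.4 CPM (SD, n = 3), with a log2 fold change of -0.47 ± 0.14 (SE, edgeR adjusted p = 0.0545). It passed the test with DESeq2 (adjusted p = 0.00966), without scaling beyond library size (0.0288), with a TPM filter of 5 (0.0395), with the trend with transcript length removed (0.0489) and with limma on log2(TPM + 1) (0.0165). In edgeR it did not pass with RLE scaling (adjusted p = 0.0501), without the TPM filter (0.0580) or with a replicate block (0.236). The median of all genes was -0.083 without scaling and -0.23 with limma on log2(TPM + 1). Over the 7 fits that each leave out 1 pup, the log2 fold change of *Hsd3b1* was between -0.58 and -0.30, and none of them called it.

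*Hsd3b6* showed no called difference. The gene, at chr3:98805504-98814443 on the minus strand, encodes the form of the enzyme known from adult Leydig cells. It was at 55.2, 60.3, 90.7 and 56.4 CPM in wild-type replicates 1 to 4 and at 79.2, 50.1 and 35.4 CPM in *Meioc*-null replicates 1 to 3. Wild-type replicate 3 and *Meioc*-null replicate 1 were high and *Meioc*-null replicate 3 was low (log2 fold change 0.26 ± 0.26 SE, adjusted p = 0.535). The ratio of *Hsd3b1* to *Hsd3b6* in CPM was 2.27, 2.56, 1.74 and 2.27 in wild-type replicates 1 to 4 and 3.01, 3.30 and 5.16 in *Meioc*-null replicates 1 to 3. These ratios, formed after the values were seen, did not overlap between the genotypes. They do not depend on library scaling, but they depend on how shared reads were divided. Another family member, *Hsd3b2*, was at 52.2 CPM in *Meioc*-null replicate 2 and at 28.1 to 32.4 CPM in the other pups.

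The 250 bases before the start of both genes are shown because these related genes differed in their levels over pups. Both windows hold the letters AGATAA on either strand, shown in capitals (RefSeq, GRCm38.p6, minus strand, 5′ to 3′).
*Hsd3b1*, chr3:98859795-98860044: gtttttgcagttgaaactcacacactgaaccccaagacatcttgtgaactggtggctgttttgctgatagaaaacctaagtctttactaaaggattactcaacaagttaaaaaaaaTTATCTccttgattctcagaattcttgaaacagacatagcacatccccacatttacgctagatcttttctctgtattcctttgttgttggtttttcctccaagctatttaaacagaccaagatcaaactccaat
*Hsd3b6*, chr3:98814444-98814693: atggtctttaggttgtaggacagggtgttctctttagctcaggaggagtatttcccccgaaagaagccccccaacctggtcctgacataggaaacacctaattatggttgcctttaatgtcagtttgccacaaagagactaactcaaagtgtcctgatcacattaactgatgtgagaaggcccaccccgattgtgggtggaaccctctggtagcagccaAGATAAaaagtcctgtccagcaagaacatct
The match begins at position -134 in *Hsd3b1*, where it reads TTATCT, and at position -31 in *Hsd3b6*, counted from the start. Windows of 300 bases, 250 before and 50 after the start, were searched on both strands for AGATAA, to which GATA factors bind. The related letters TGATAA were searched in the same way. So was the NR5A1 motif, CAAGGNCA. Of 32851 such windows in the mouse, 11.2% hold the first of these, 9.05% the second and 6.71% the NR5A1 motif. The windows of *Hsd17b3*, *Insl3*, *Lhcgr* and *Srd5a1* hold none of the 3, and those of *Hsd3b1* and *Hsd3b6* hold only AGATAA. *Star*, *Cyp17a1* and *Cyp11a1* had no window at their annotated start to search. A match is a run of letters, not a shown binding site.

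*Insl3* and *Lhcgr* varied least between pups of the 9 genes. *Insl3*, at chr8:71689214-71690575 on the plus strand, was at 77.2, 58.5, 70.5 and 75.4 CPM in wild-type replicates 1 to 4 and at 75.8, 51.4 and 47.7 CPM in *Meioc*-null replicates 1 to 3. The highest *Meioc*-null pup lay within the wild-type range (log2 fold change 0.27 ± 0.16 SE, adjusted p = 0.289). Without *Meioc*-null replicate 1 the log2 fold change was 0.51 and passed the test (adjusted p = 0.0328). *Lhcgr*, at chr17:88716481-88791990 on the minus strand, encodes the receptor through which luteinizing hormone acts on the cell. It was at 15.8, 17.4, 16.8 and 19.97 CPM in wild-type replicates 1 to 4 and at 22.2, 16.9 and 24.4 CPM in *Meioc*-null replicates 1 to 3. In CPM, the 2 highest pups were *Meioc*-null, and the remaining *Meioc*-null pup lay within the wild-type range (log2 fold change -0.28 ± 0.14 SE, adjusted p = 0.224). In TPM the groups did not overlap, at 11.0 to 13.1 in wild type and 14.8 to 18.4 in *Meioc*-null pups. On the TPM scale, where the median of all genes was also negative, the log2 fold change of *Lhcgr* was -0.47 and passed the test (limma adjusted p = 0.0316).

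*Srd5a1* showed no called difference. The gene is at chr13:69573449-69611442 on the minus strand. It was at 22.7, 20.7, 31.6 and 23.4 CPM in wild-type replicates 1 to 4 and at 29.9, 24.6 and 14.4 CPM in *Meioc*-null replicates 1 to 3. Both groups held a high pup, and the lowest pup was *Meioc*-null replicate 3 (log2 fold change 0.10 ± 0.23 SE, adjusted p = 0.795). The sign of this small difference turned without *Meioc*-null replicate 3 (-0.15) and without wild-type replicate 3 (-0.041). It also turned with limma on log2(TPM + 1), to -0.10, where the median of all genes was lower still, at -0.23. *Meioc*-null replicate 3 was the lowest pup for *Srd5a1*, *Insl3*, *Hsd17b3*, *Hsd3b6* and *Cyp11a1*, and the highest for *Star* and *Lhcgr*.

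**Figure D4:**
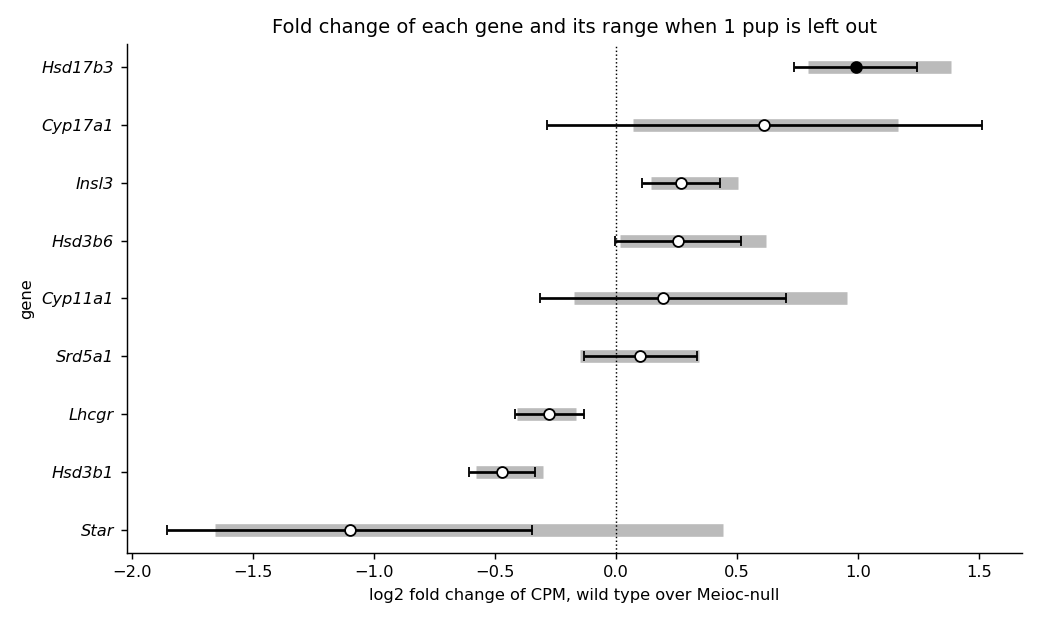
Log2 fold change of CPM, wild type over *Meioc*-null, of the 9 genes (circles, filled where the adjusted p was under 0.05, with bars of ± 1 SE), and the range of the same value when each pup is left out in turn (grey). *Hsd17b3* is the filled circle at 0.99; the grey range of *Star* runs from -1.65 to 0.44 and those of *Star*, *Cyp11a1* and *Srd5a1* cross 0.

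Each gene was also set against the summed CPM of the other 8, which removes library scaling. For *Hsd17b3*, that sum leans on abundant genes such as *Hsd3b1* (mean 164.5 CPM over the 7 pups). In *Meioc*-null replicate 3 it also holds *Star* at 265 CPM. The ratio therefore carries changes of those genes too and does not measure *Hsd17b3* alone. The log2 ratio of *Hsd17b3* was -4.96, -5.18, -5.14 and -4.37 in wild-type replicates 1 to 4 and -5.69, -5.88 and -6.87 in *Meioc*-null replicates 1 to 3. All wild-type pups were above all *Meioc*-null pups, with a mean difference of 1.23. For the other 8 genes the groups overlapped. Their mean differences ran from -0.83 for *Star* to 0.52 for *Insl3*. With TPM in place of CPM, *Hsd3b1* also separated the groups, with a difference of -0.68 against -0.45 in CPM. That of *Lhcgr* was -0.30 in TPM and -0.11 in CPM, and its groups overlapped on either scale.

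The other genes of the path were read from 7 lists with 88 tested genes, of which 3 were called (3.41%, against 11.1% of all tested genes), 1 higher and 2 lower in wild type. Lists of cell type markers and differentiation signals held 69 further tested genes, of which 12 were called (17.4%). None of the 19 genes of cholesterol synthesis was called by edgeR, with 2 at an unadjusted p under 0.05 and 2 called by DESeq2. *Hmgcs1*, which makes the precursor of mevalonate, was at 399 ± 23.0 CPM in wild type (SD, n = 4) and 408 ± 61.8 CPM (SD, n = 3) in *Meioc*-null pups. None of the 15 genes of cholesterol uptake, storage and transport was called by edgeR or DESeq2, with 2 at an unadjusted p under 0.05. *Soat1*, which esterifies cholesterol for storage, was at 296 ± 47.1 and 316 ± 32.3 CPM, and *Scap*, the escort of the sterol-sensing factors, at 190 ± 34.3 and 159 ± 17.8 CPM. The summed level of the synthesis genes was 1207 to 1437 CPM in wild type and 1112 to 1535 CPM in *Meioc*-null pups.

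Electron donors and other steroid enzymes showed no called gene. None of the 6 electron donors was called by edgeR or DESeq2, with 2 at an unadjusted p under 0.05 and 1 called by limma. *Cyb5b* was at 172 ± 17.4 CPM in wild type (SD, n = 4) and 183 ± 11.3 CPM (SD, n = 3) in *Meioc*-null pups, and *Cyb5r3* at 148 ± 9.55 and 132 ± 11.3 CPM. Of 21 other steroid enzymes, 8 were tested and none was called by edgeR or DESeq2, with 0 at an unadjusted p under 0.05 and 1 called by limma. The most abundant were *Hsd17b4*, a peroxisomal enzyme, at 114 ± 4.41 and 115 ± 2.69 CPM and *Hsd17b12*, which takes part in fatty acid elongation, at 69.4 ± 3.09 and 62.5 ± 5.23 CPM. Aromatase, *Cyp19a1*, reached 0.434 CPM.

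Of the 15 tested transcription factors that act on steroidogenic genes, 2 were called, both lower in wild type. Of all tested genes, 11.1% were called, 3.33% lower in wild type. In this list, 5 genes stood at an unadjusted p under 0.05. DESeq2 called 4 and limma 6 of them, against 17.1% and 18.5% of all tested genes. *Gata4*, which binds promoters of several steroidogenic genes and is also made by Sertoli cells, was at 69.8 ± 3.88 CPM in wild type (SD, n = 4) and 88.0 ± 3.77 CPM (SD, n = 3) in *Meioc*-null pups (log2 fold change -0.33 ± 0.076 SE, edgeR adjusted p = 0.0253). *Jun*, a subunit of AP-1, was at 29.4 ± 3.86 and 41.9 ± 5.98 CPM (-0.51 ± 0.13 SE, adjusted p = 0.0376). Either call was lost in 5 of the 7 fits that leave out 1 pup. The list as a whole had a median log2 fold change of -0.14. Of its 15 tested genes, 5 were highest in *Meioc*-null replicate 3, against 14.0% of all tested genes.

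None of the 19 genes of luteinizing hormone and cyclic AMP signalling was called by edgeR, with 3 at an unadjusted p under 0.05, 2 called by DESeq2 and 3 by limma. *Gnas*, the stimulatory G protein subunit, was at 419 ± 11.8 CPM in wild type (SD, n = 4) and 429 ± 13.8 CPM (SD, n = 3) in *Meioc*-null pups, and *Prkar1a*, a regulatory subunit of protein kinase A, at 286 ± 5.60 and 267 ± 8.62 CPM. Among 6 tested hormone receptors and genes known to depend on androgen, 1 was called. *Eppin*, a protease inhibitor that Sertoli cells make under androgen, was at 152 ± 10.5 CPM in wild type and 100 ± 19.2 CPM in *Meioc*-null pups (log2 fold change 0.60 ± 0.13 SE, edgeR adjusted p = 0.0225), a call lost in 4 of the 7 fits that leave out 1 pup. The androgen-dependent gene *Rhox5* is in the same list and was not called.

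**Figure D5:**
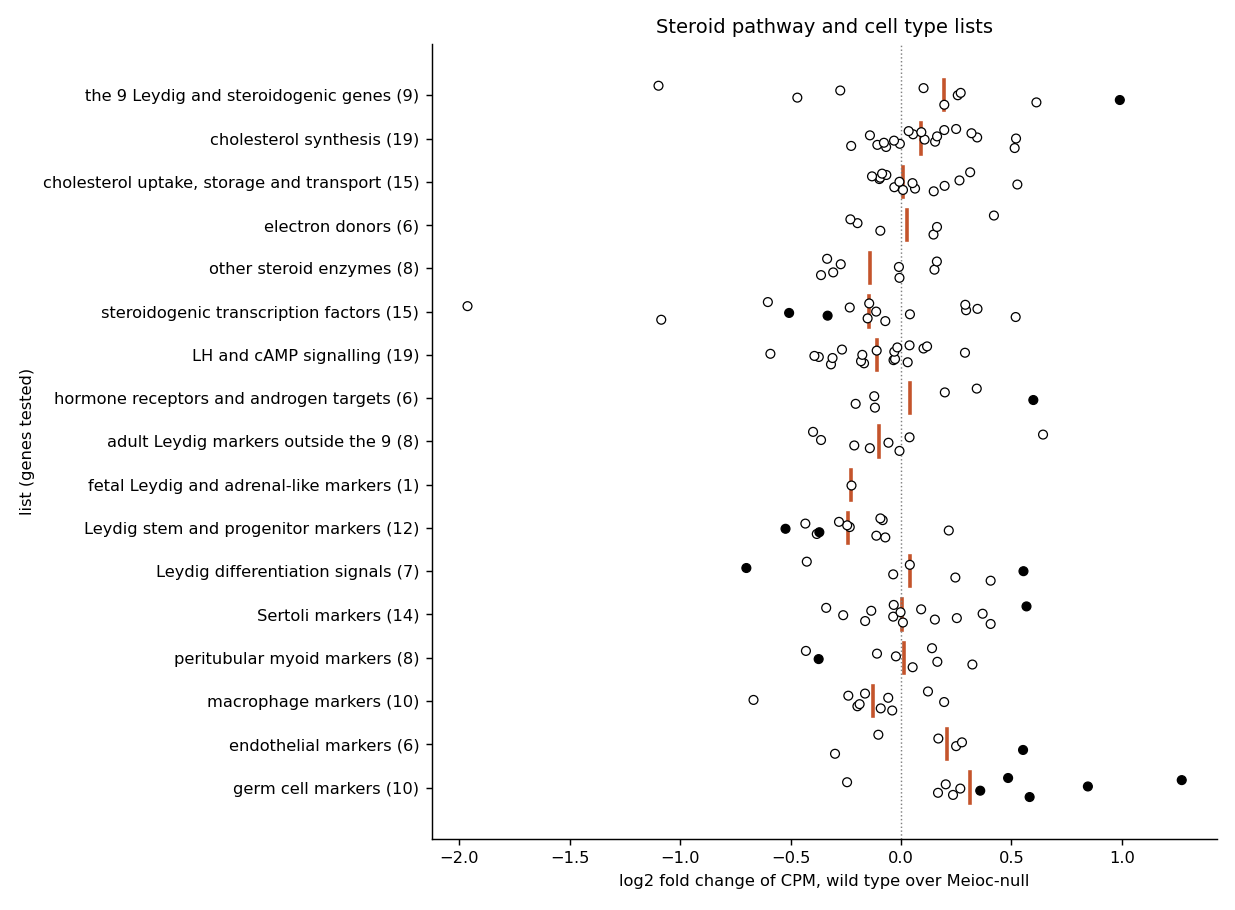
Log2 fold change of CPM, wild type over *Meioc*-null, of each tested gene (circles, filled where the edgeR adjusted p was under 0.05) in the 9 genes and in 16 lists of the steroid pathway and of cell types, with the median of each list as a red line and the number of genes tested in brackets. No circle is filled in cholesterol synthesis, cholesterol transport, electron donors, other steroid enzymes or luteinizing hormone signalling; 5 of 10 are in germ cell markers.

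Markers of the Leydig lineage outside the 9 genes were read in the same way. Of all tested genes, 11.1% were called, 3.33% lower in wild type. None of the 8 tested adult Leydig markers was called by edgeR or DESeq2, with 2 at an unadjusted p under 0.05 and 1 called by limma. *Vcam1* was at 152 ± 32.4 CPM in wild type (SD, n = 4) and 200 ± 31.9 CPM (SD, n = 3) in *Meioc*-null pups, and *Gramd1b* at 70.6 ± 9.31 and 81.8 ± 8.30 CPM. The summed level of the adult markers was 334 to 365 CPM in wild type and 376 to 449 CPM in *Meioc*-null pups. Of the 5 fetal Leydig and adrenal-like markers only *Thbs2* was tested, at 18.9 ± 3.63 and 22.2 ± 2.34 CPM, and it was not called by edgeR, DESeq2 or limma, nor at an unadjusted p under 0.05 (0 genes). Of the 12 stem and progenitor markers, 2 were called, both lower in wild type. *Nes*, nestin, was at 40.4 ± 3.44 and 58.1 ± 10.4 CPM (log2 fold change -0.52 ± 0.12 SE, edgeR adjusted p = 0.0277) and *Lifr*, the receptor of leukemia inhibitory factor, at 176 ± 9.65 and 228 ± 22.2 CPM (-0.37 ± 0.086 SE, adjusted p = 0.0266). Either call was lost in 5 of the 7 fits that leave out 1 pup. The summed level of these 12 markers was 811 to 901 CPM in wild type and 975 to 1153 CPM in *Meioc*-null pups, with none at 0. The sums of the adult and of the progenitor markers thus both separated the genotypes in the same direction as *Hsd3b1*. Single markers went both ways: log2 fold changes ran from -0.40 to 0.64 in adult and from -0.52 to 0.22 in progenitor markers. A sum leans on its most abundant genes. Of all tested genes taken singly, 10.8% separated in this direction, a share that holds for single genes and not for sums. *Vcam1*, the most abundant adult marker, overlapped, at 116 to 184 CPM in wild type and 166 to 229 CPM in *Meioc*-null pups. The part of these markers in the difference of *Hsd3b1* was not tested.

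Among 7 tested signals of Leydig differentiation, *Kitl* and *Kit* were called in opposite directions. *Kitl*, the KIT ligand made by Sertoli cells, was at 175 ± 14.9 CPM in wild type (SD, n = 4) and 285 ± 23.4 CPM (SD, n = 3) in *Meioc*-null pups (log2 fold change -0.70 ± 0.091 SE, edgeR adjusted p = 0.00530), and this call held in all 7 fits that leave out 1 pup. *Kit*, its receptor, which differentiating germ cells carry as well as Leydig cells, was at 223 ± 28.0 and 152 ± 9.27 CPM (0.55 ± 0.11 SE, adjusted p = 0.0175), a call lost in 4 of those fits. In other cell types, 1 of 14 Sertoli markers (*Tsx*) and 1 of 6 endothelial markers (*Egfl7*) were called higher in wild type, and 1 of 8 peritubular myoid markers (*Des*) lower. With 1 pup left out, the call of *Tsx* was lost in 5 of the 7 fits and those of *Egfl7* and *Des* in all 7. With limma on log2(TPM + 1), *Tsx* (adjusted p = 0.0947) and *Egfl7* (0.164) were not called, and without scaling *Egfl7* was not (0.0731). None of 10 macrophage markers was called by edgeR, with 2 at an unadjusted p under 0.05, 1 called by DESeq2 and 3 by limma. *Mrc1* was at 200 ± 6.25 and 184 ± 18.3 CPM and *Lyz2* at 49.7 ± 2.46 and 55.6 ± 11.4 CPM. The called germ cell markers included *Tex101* (log2 fold change 1.27), *Rhox13* (0.85), *Dazl* (0.58) and *Tex14* (0.48). Some genes stand in more than 1 list, such as *Dhh*, *Amh* and *Prlr*.

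The 5 tested genes nearest to the mean profile of the 9 genes over the 7 pups were *Kcnk3*, *Elovl6*, *Agpat2*, *Abhd2* and *Lst1*, at root mean square differences of 0.162 to 0.193 on the log2 scale. *Kcnk3*, a potassium channel, was highest in *Meioc*-null replicate 1 (19.5 CPM) and wild-type replicates 3 (18.1 CPM) and 2 (15.8 CPM) and lowest in wild-type replicate 1 (8.83 CPM). *Elovl6*, which elongates fatty acids, was highest in wild-type replicates 3 (24.4 CPM) and 2 (21.6 CPM). *Agpat2* and *Abhd2* encode enzymes of lipid metabolism, and *Lst1*, at 0.151 to 0.697 CPM, was close to the limit that 3 counts set. None of the 5 was called between genotypes.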

How the data were processed

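RNA-seq of 7 pups (4 wild type, 3 *Meioc*-null), grouped by the genotype in their labels, was used. Per the submitters' processing notes, reads were trimmed with cutadapt 1.8 and quantified with kallisto 0.44.0, on the GENCODE Basic vM15 transcripts (mm10), with strand and sequence-bias correction. The authors deposited estimated counts per protein-coding transcript, not normalized across libraries, and TPM, renormalized over protein-coding transcripts. TPM keeps no depth. Here transcripts were matched to genes by identifier in GENCODE vM21 (GRCm38), and values were summed by gene. Of 43139 transcripts, 119 (0.247% to 0.282% of a library's counts) were unmatched and left out. The estimated counts were rounded and scaled by TMM. In edgeR 4.0.16 (R 4.3.3), a quasi-likelihood test without covariates was run on the 13630 genes that reached a TPM of 1 in 3 or more libraries. Adjusted p-values are Benjamini-Hochberg values over all of these genes, called under 0.05.

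On simulated data with 200 of 13630 genes changed, edgeR recovered 89 of 100 genes changed by 2-fold and 99 of 100 changed by 4-fold, with 9 false calls. Each simulated gene had the spread typical of its level. These rates therefore do not cover genes that vary as widely as *Star*, *Cyp17a1* or *Cyp11a1*. Depth was 12537852 to 20552702 estimated counts per library. Limits from 3 counts cover counting error only. No pair of libraries was as close as counting noise.

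The 9 genes and the lists were chosen with earlier results of these data known. From each list, the called genes were named (up to 4 per direction, by size), or the 2 most abundant where none was called; some genes of these lists are counted but not reported by name here. *Fdx1*, *Alas1*, the genes nearest to single genes, the immediate-early genes, *Jak3*, *Hsd3b2*, *Cyp19a1*, *Rhox5* and the absent markers were named after their values were seen. Over the 35 splits of the pups, an exact permutation test cannot go below p = 0.0571, so single values derived over the 9 genes carry no p. The alternatives were DESeq2 1.42.0, limma 3.58.1 on log2(TPM + 1) and log2(TPM + 0.1), RLE scaling, no scaling beyond library size, other TPM filters, removal of the trend with transcript length, a replicate block and leaving out each pup.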

Additional observations from a re-analysis of the deposited data

Results flagged for a closer look

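Of 70 values examined in the wild-type pups, 3 had 1 pup far from the other 3 by Dixon's test at the 95% level. Chance alone marks about 1 value in 20. The *Meioc*-null group has 3 pups and was not examined in this way. *Hsd3b6* was at 90.7 CPM in wild-type replicate 3 and at 55.2 to 60.3 CPM in the other 3 wild-type pups. *Nes* was at 45.6 CPM in wild-type replicate 1 and at 38.3 to 39.0 CPM in the others. *Ren1* was at 12.1 CPM in wild-type replicate 2 and at 6.69 to 7.54 CPM in the others.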

How the results depend on the processing

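*Hsd17b3* kept its call under all 8 alternatives of scaling, tool, unit and filter, and lost it with a replicate block and in 5 of the 7 fits that leave out 1 pup; the cause was not tested. The number of genes called was 2331 with DESeq2, 2522 with limma on log2(TPM + 1), 2506 on log2(TPM + 0.1), and 131 to 2172 when 1 pup was left out, the lowest without *Meioc*-null replicate 3. Of the 9 genes, 2 were called with DESeq2, with no scaling, with the stricter TPM filter or with the length trend removed, 3 with limma at either pseudocount, and 0 to 2 with 1 pup left out. Replicate numbers are shared by the groups but do not pair the pups (correlations of same-numbered pups -0.044, -0.097 and -0.21). With the replicate block, 109 genes and 0 of the 9 were called.

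With 1 pup left out, the log2 fold change ran from -1.65 to 0.44 for *Star*, from -0.17 to 0.96 for *Cyp11a1* and from -0.15 to 0.35 for *Srd5a1*. With limma it was -0.27 and -0.31 for *Cyp17a1* and -0.10 and -0.11 for *Srd5a1*, at pseudocounts of 1 and 0.1. The median of all genes was -0.23 and -0.25 in these fits. Against the other 8 genes, the difference with 1 pup left out ran from -1.38 to 0.13 for *Star*, from -0.22 to 0.96 for *Cyp11a1*, from -0.42 to 0.88 for *Cyp17a1*, from -0.34 to 0.077 for *Lhcgr* and from -0.16 to 0.65 for *Srd5a1*, and for *Cyp17a1* it was -0.043 in TPM.

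The list genes called outside the 9 were 32 with limma on log2(TPM + 1) and 3 to 33 with 1 pup left out. With limma, where the median of all genes was -0.23, list medians were -0.098 for cholesterol synthesis, -0.23 for cholesterol transport, -0.19 for electron donors, -0.32 for other steroid enzymes, -0.35 for transcription factors, -0.28 for luteinizing hormone signalling, -0.18 for hormone receptors, -0.30 for adult Leydig markers, -0.46 for progenitor markers, -0.16 for differentiation signals, -0.23 for Sertoli, -0.22 for myoid, -0.35 for macrophage, -0.068 for endothelial and 0.069 for germ cell markers. Without scaling they were -0.22 for other steroid enzymes, -0.19 for luteinizing hormone signalling, -0.036 for differentiation signals, -0.075 for Sertoli and 0.24 for germ cell markers. With 1 pup left out they ran from 0.020 to 0.51 for the 9 genes, -0.042 to 0.17 for electron donors, -0.15 to -0.015 for other steroid enzymes, -0.023 to 0.26 for hormone receptors, -0.027 to 0.16 for differentiation signals, -0.028 to 0.10 for Sertoli and -0.23 to 0.042 for macrophage markers.

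Depth limits the low genes most: *Hsd17b3* rests on 91 to 331 counts per library, and genes at or under 3 counts cannot be told from 0.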
